A study of Mus musculus with 18 samples.

Results

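The comparison of mouse embryonic stem cells transfected with a Foxd3 plasmid against the same cells transfected with an empty vector is described here across all genes measured. It rests on 6 of the 18 arrays of the series, 3 with Foxd3 and 3 with vector in their titles. Arrays were placed in the groups by those titles. The cells were CGR8, a feeder-independent mouse embryonic stem cell line, grown in GMEM with 10% serum and LIF (leukaemia inhibitory factor, which holds stem cells in self-renewal) and transfected by lipofection. Both groups therefore carried a plasmid and the transfection reagent. The sources used here do not state the plasmid's sequence, its promoter or the time after transfection. Each array held RNA of 1 biological replicate. The labels do not say whether the replicates came from separate cultures, so p-values measure the spread between these samples only.

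Beside these groups, the same cells had received Foxd3 with CA-NFATc3 (by the usual meaning of its name, a constitutively active form of the calcineurin-dependent factor NFATc3) or CA-NFATc3 alone. Foxd3fl/fl:Cre-ERT cells, in which tamoxifen activates a Cre recombinase that deletes the floxed gene, had received tamoxifen for 2 days or DMSO, listed as 0 days of tamoxifen. Each of these 4 groups had 3 arrays, and their labels carry the source name and protocols of the CGR8 samples. They are used below only where the genes that changed between Foxd3 and vector are set beside the same plasmid on another background or beside loss of the gene.

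Foxd3 is a forkhead transcription factor that binds enhancers in pluripotent cells and is needed to maintain the epiblast and the neural crest. Pluripotent cells occur in a naive state, resembling the preimplantation epiblast and held by LIF, Klf factors, Esrrb, Tfcp2l1 and Tbx3, and in a primed state resembling the later epiblast, marked by Otx2, Pou3f1 and the de novo DNA methyltransferases. Forkhead factors recognise sites related to TGTTTAC, whereas GGAAA is the core of sites bound by NFAT factors.

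The Foxd3 transcript itself went against the label. Its probe set read 232, 244 and 236 in the arrays labelled Foxd3, against 507, 419 and 404 in the vector arrays, so all 3 arrays labelled Foxd3 lay below all 3 vector arrays. The log2 change was -0.81 ± 0.13 (adjusted p = 0.00169), and the call held whichever of the 6 arrays was left out. In the cells that also received CA-NFATc3 the order was the same, with 277, 210.2 and 214 in arrays labelled Foxd3+CA-NFATc3 and 463, 408 and 483 in CA-NFATc3 arrays. A probe set that lies outside the inserted sequence would not read plasmid RNA, and its position relative to the insert is not known here. Overproduction of Foxd3 was thus not seen at this probe set, and every direction below is that of the arrays by their labels. The same probe set read 65.1, 9.55 and 19.7 in knockout cells given tamoxifen, which deletes the gene, and 249, 204 and 205 in their DMSO controls.

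The arrays were otherwise alike. Median signals were 55.2 to 61.0 in the 3 Foxd3 arrays and 56.6 to 60.6 in the 3 vector arrays. Replicates of these groups correlated at 0.985 to 0.987 across probe sets on the log2 scale. The 8 defining markers of embryonic stem cells all reached 65.8, the median of all deposited signals, in all 6 arrays, and their summed signal was 94060 to 99010 with Foxd3 and 97360 to 108900 with vector. Of them, Esrrb passed the test, with a lower level. Pou5f1 averaged 10466 ± 550.0 with Foxd3 and 10417 ± 675 with vector (SD, n = 3 arrays each, as for all group means below), and its log2 change was 0.01 ± 0.08 (adjusted p = 0.982). Nanog changed by -0.15 ± 0.09 (adjusted p = 0.485) and Sox2 by -0.11 ± 0.06 (adjusted p = 0.464). Of 11 fibroblast markers, 7 were below 65.8 in all 6 arrays, and the summed level of the list was 752 to 793 with Foxd3 and 631 to 682 with vector.

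Levels are given as deposited signals, and changes as log2 differences of signal + 32, Foxd3 minus vector, with the standard error of the limma fit over 12 arrays. Genes whose adjusted p was under 0.05 are termed called. Of 11609 genes tested, 334 were called (2.88%), of which 198 were higher (1.71%) and 136 lower (1.17%) with Foxd3. The median change over all tested genes was -0.01. At an unadjusted p under 0.05 there were 1635 genes. The rises were the larger changes. Their median was 0.76 and their range 0.20 to 3.38, whereas the falls had a median of -0.45 and ran to -1.13. Of the 66 genes that were called and changed at least 2-fold (0.569%), 65 rose and 1 fell. The rising genes were also dimmer. Their median signal was 752 with Foxd3 and 386 with vector, while the falling genes had medians of 1160 with Foxd3 and 1580 with vector. In all 334 called genes the 3 arrays of one group lay apart from the 3 of the other, as they did in 20.0% of all tested genes.

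**Figure D1:**
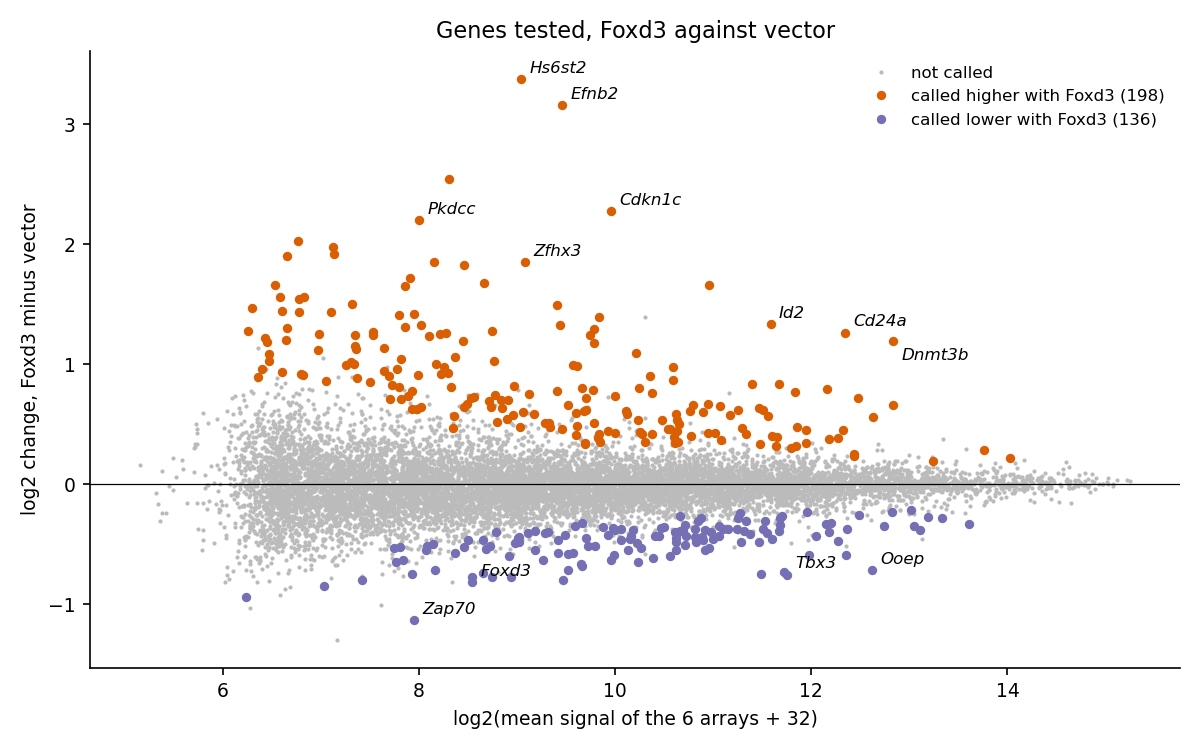
Each point is a tested gene, with the log2 of its mean signal over the 6 arrays plus 32 on the x axis and its log2 change, Foxd3 minus vector, on the y axis. The 198 genes called higher reach 3.38 at Hs6st2, and the 136 called lower reach -1.13 at Zap70.

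The fit used here did not pair arrays by replicate number, and blocking on that number raised the count to 783 genes, 401 higher and 382 lower. The count depended on single arrays, falling to 158 without Foxd3 replicate 3 and to 187 without vector replicate 3. Falls were lost more than rises, with 44 falling genes without vector replicate 3, 47 without Foxd3 replicate 3, 59 without vector replicate 2 and 72 without Foxd3 replicate 1. The rising genes numbered 111 without Foxd3 replicate 3 and 143 to 174 without any other single Foxd3 or vector array. With each array centred on its median, 192 genes were higher and 85 lower, so that 69.3% of calls were rises, against 59.3% with signals as deposited. Where a call given below was lost under such centring or another setting, the adjusted p is given for some of those settings. The settings include averaging all probe sets of a gene in place of using the brightest, and limma without a variance trend. A setting left unmentioned for a gene did not always keep its call.

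The 15 largest rises had log2 changes of 1.66 to 3.38. Hs6st2, which adds sulphate at the 6-O position of heparan sulphate, gave 769, 913 and 1103 with Foxd3 and 70.7, 54.2 and 53.9 with vector. Its log2 change was 3.38 ± 0.15 (adjusted p = 3.72e-09), an at least 13.6-fold difference. Such bounds compare geometric means of deposited signals, with vector arrays under 65.8 set to that value, and stand for any fold where the vector mean was lower than 65.8; other folds are those of signal + 32. Efnb2, the transmembrane ligand ephrin-B2 of Eph receptors, gave 1099, 986 and 1629.7 with Foxd3 and 86.5, 132 and 106 with vector. It rose 8.93-fold (log2 change 3.16 ± 0.21, adjusted p = 7.03e-07), and every Foxd3 array lay far above every vector array.

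Cdkn1c encodes p57, an imprinted inhibitor of cyclin-dependent kinases. Its signals were 1714, 1232 and 1899 with Foxd3 and 267, 271 and 380.2 with vector, a 4.85-fold rise (log2 change 2.28 ± 0.18, adjusted p = 2.63e-06). Ms4a4d, a membrane protein of the MS4A family, read 411, 483 and 630.2 with Foxd3 and 65.6, 43.2 and 71.8 with vector, at least 7.38-fold higher (adjusted p = 2.77e-06). Pkdcc, a secreted protein kinase of skeletal development, read 383, 465 and 318 with Foxd3 and 58.2, 61.7 and 55.1 with vector, at least 5.84-fold higher (adjusted p = 1.05e-06). In each of these 5 genes the lowest Foxd3 array lay well above the highest vector array.

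Among the other large rises, Has2, a hyaluronan synthase, gave 121, 132 and 127.7 with Foxd3 and 14.2, 4.81 and 13.2 with vector, at least 1.93-fold higher (log2 change 1.90 ± 0.21, adjusted p = 6.46e-05, which depends on the offset). Zfhx3, a zinc finger homeobox factor, gave 742, 840.1 and 857 with Foxd3 and 202, 168 and 241 with vector, a 3.61-fold rise (adjusted p = 3.15e-06). Fzd2, a Frizzled receptor for Wnt ligands, gave 245, 365 and 402 with Foxd3 and 77.3, 74.4 and 82.2 with vector, a 3.30-fold rise (adjusted p = 6.15e-04). The set also held receptors and secreted proteins of other pathways. The calcitonin receptor gene Calcr averaged 413 ± 98.5 with Foxd3 and 90.4 ± 21.2 with vector, the insulin-like growth factor binding protein gene Igfbp3 averaged 583 ± 207 with Foxd3 and 161 ± 61.6 with vector, and the cannabinoid receptor gene Cnr1 averaged 187 ± 14.8 with Foxd3 and 26.5 ± 22.4 with vector. Fndc3c1, a fibronectin type III domain gene, averaged 516 ± 41.9 with Foxd3 and 125 ± 38.2 with vector (adjusted p = 1.47e-05). The cytochrome P450 gene Cyp1b1 averaged 192 ± 57.4 with Foxd3 and 26.0 ± 2.13 with vector, Pdzph1 averaged 143 ± 41.6 with Foxd3 and 10.7 ± 7.50 with vector, and the guanylate-binding protein gene Gbp2b averaged 108 ± 14.6 with Foxd3 and 12.8 ± 9.78 with vector. All 3 were below 65.8 in every vector array, and were at least 2.83-fold, 2.12-fold and 1.63-fold higher in that order, while Cnr1 was at least 2.84-fold higher. All 15 kept their calls whichever of the 6 arrays was left out, with adjusted p-values up to 0.0115.

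**Figure D2:**
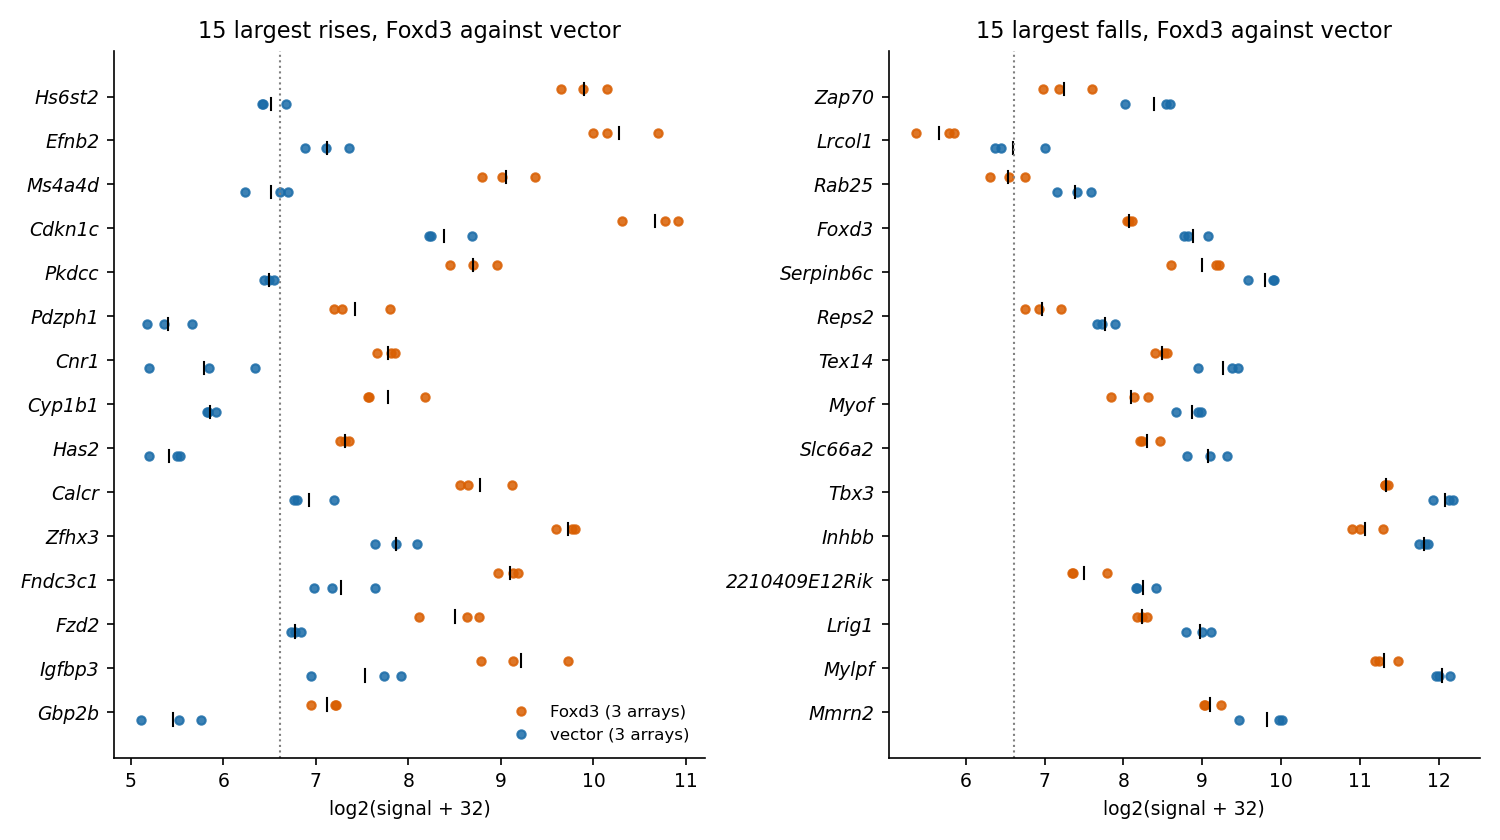
Points are single arrays on the log2(signal + 32) scale for the 15 largest rises and 15 largest falls, with Foxd3 in orange, vector in blue, black ticks at group means and a dotted line at a signal of 65.8. The Hs6st2 arrays lie at 769 to 1103 with Foxd3 and 53.9 to 70.7 with vector, whereas the falls have small gaps between groups.

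The 15 largest falls were smaller and less stable. Zap70, the kinase best known from T cell receptor signalling, gave 94.1, 162 and 113 with Foxd3 and 354, 339 and 228 with vector (log2 change -1.13 ± 0.28, adjusted p = 0.0405, 2.19-fold lower). Its call was lost without 4 of the 6 arrays, at adjusted p-values up to 0.148. Tbx3, a T-box factor of the naive state, read 2509, 2585 and 2510.2 with Foxd3 and 3875, 4603 and 4441 with vector. Its log2 change was -0.75 ± 0.08 (adjusted p = 2.96e-05), and another tested probe set of the gene read 1218 with Foxd3 and 2181 with vector on average. Inhbb, the beta subunit of activin B, read 2472, 1873 and 2022 with Foxd3 and 3706, 3421 and 3588 with vector (log2 change -0.75 ± 0.13, adjusted p = 0.00285). Mylpf, a fast-muscle myosin light chain, read 2837, 2302 and 2385 with Foxd3 and 4498, 3964 and 4085 with vector (log2 change -0.73 ± 0.11, adjusted p = 9.53e-04).

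Tex14, which is needed for the intercellular bridges of germ cells, averaged 327 ± 19.7 with Foxd3 and 589 ± 111 with vector (adjusted p = 0.00299). Slc66a2, a predicted membrane transporter, averaged 285 ± 30.4 with Foxd3 and 512 ± 95.1 with vector (adjusted p = 0.00714). Together with Foxd3, Tbx3, Inhbb and Mylpf these kept their calls without any single array. The other 9 were Zap70, Rab25, a GTPase of epithelial recycling endosomes, Lrcol1, Serpinb6c, Reps2, Myof, 2210409E12Rik, Lrig1 and Mmrn2. Without single arrays, 7 of the 15 falls kept their calls when vector replicate 3 or Foxd3 replicate 1 was left out, 8 without Foxd3 replicate 3 or vector replicate 2 (where Lrcol1 was not tested), 12 without vector replicate 1 and 13 without Foxd3 replicate 2. Lrcol1 averaged 19.3 ± 8.88 with Foxd3 and 67.2 ± 25.1 with vector, so its levels with Foxd3 were below 65.8 and no fold is given. With all probe sets averaged, Inhbb and Slc66a2 were not called (adjusted p = 0.0797 and 0.0981), nor were Reps2, Myof and Lrig1 (adjusted p = 0.542, 0.234 and 0.274). Without a variance trend Zap70, Serpinb6c, Mmrn2, Reps2 and Myof were not called (adjusted p = 0.0969, 0.0511, 0.0528, 0.0511 and 0.0893). Rab25 was not called with all 18 arrays in 1 fit (adjusted p = 0.175).

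The 250 bases upstream of the annotated start are shown for the pair of largest rises, the pair of largest falls and Foxd3 itself, since these 5 genes carry the ends of the distribution and the check of the label. They are RefSeq sequences of build GRCm38.p6, 5′ to 3′ along the gene's strand, from the first promoter listed for each gene. Capitals mark the letters searched on either strand, which were TGTTTAC, the related string TGTTTGC, and GGAAA; none of them contains another.
Hs6st2 (chrX:51681603-51681852, minus strand): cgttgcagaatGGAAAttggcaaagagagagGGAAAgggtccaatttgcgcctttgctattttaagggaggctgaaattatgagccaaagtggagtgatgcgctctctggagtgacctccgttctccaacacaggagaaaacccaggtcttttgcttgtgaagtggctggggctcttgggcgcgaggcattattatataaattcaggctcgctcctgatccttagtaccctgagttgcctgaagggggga
Efnb2 (chr8:8661243-8661492, minus strand): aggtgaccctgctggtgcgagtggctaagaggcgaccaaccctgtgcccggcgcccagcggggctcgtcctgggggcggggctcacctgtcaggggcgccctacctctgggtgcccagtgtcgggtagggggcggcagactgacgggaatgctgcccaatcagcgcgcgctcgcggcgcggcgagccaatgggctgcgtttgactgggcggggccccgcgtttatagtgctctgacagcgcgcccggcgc
Zap70 (chr1:36761548-36761797, plus strand): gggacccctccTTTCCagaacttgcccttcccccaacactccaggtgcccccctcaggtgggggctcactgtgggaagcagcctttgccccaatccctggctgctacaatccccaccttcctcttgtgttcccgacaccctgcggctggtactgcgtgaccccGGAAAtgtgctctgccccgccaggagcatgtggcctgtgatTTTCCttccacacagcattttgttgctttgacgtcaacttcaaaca
Lrcol1 (chr5:110344480-110344729, plus strand): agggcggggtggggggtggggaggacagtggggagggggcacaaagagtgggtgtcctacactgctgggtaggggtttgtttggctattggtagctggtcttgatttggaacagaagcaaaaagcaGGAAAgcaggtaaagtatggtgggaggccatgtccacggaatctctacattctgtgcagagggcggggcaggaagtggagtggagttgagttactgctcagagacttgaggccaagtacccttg
Foxd3 (chr4:99656049-99656298, plus strand): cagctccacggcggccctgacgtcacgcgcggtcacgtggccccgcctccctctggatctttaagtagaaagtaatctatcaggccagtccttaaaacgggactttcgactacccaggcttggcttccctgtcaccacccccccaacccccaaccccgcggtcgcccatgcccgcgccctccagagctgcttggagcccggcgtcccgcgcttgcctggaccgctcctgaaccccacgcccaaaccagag
Neither forkhead motif occurred in these 5 windows, and GGAAA occurred 2 times upstream of Hs6st2, 3 times upstream of Zap70, 1 time upstream of Lrcol1 and not upstream of Efnb2 or Foxd3. Promoters were matched for 149 of the 198 rising genes, 109 of the 136 falling genes and 9412 of the 11609 tested genes. TGTTTAC or TGTTTGC was present in 4.7% of the rising, 2.75% of the falling and 5.01% of all matched promoters. GGAAA was present in 47.7% of the rising, 46.8% of the falling and 53% of all matched promoters. A match is a string of letters and not a bound site, and its absence from this window says nothing about binding elsewhere.

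Counts of called genes in this and the following lists are to be read beside the 2.88% of all tested genes that were called. The lists were chosen with earlier results of these data known, so a share above that is not independent support. Of 23 tested genes of the naive state and LIF-STAT3 list, 10 fell, 0 rose and 13 were not called. The median change of the list was -0.25 beside -0.01 for all tested genes, and 22 of the 23 had a log2 change below 0. Fbxo15, a target of Oct4 and Sox2 much used as a pluripotency reporter, gave 4099, 4058 and 4279 with Foxd3 and 5624, 6637 and 6531 with vector (log2 change -0.59 ± 0.08, adjusted p = 6.09e-04). Tfcp2l1, a factor sufficient to sustain LIF-dependent self-renewal, read 4227, 4253 and 3828 with Foxd3 and 4805, 6429 and 5979 with vector (log2 change -0.47 ± 0.09, adjusted p = 0.011). Both sets of arrays were separate.

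Klf4 and Klf5, Kruppel-like factors downstream of LIF, averaged 11045 ± 1354 and 3952 ± 50.3 with Foxd3, against 13868 ± 493 and 5247 ± 694 with vector. Their log2 changes were -0.33 ± 0.08 (adjusted p = 0.0357) and -0.40 ± 0.09 (adjusted p = 0.0286). Prdm14, which represses the de novo methyltransferases and FGF signalling, changed by -0.38 ± 0.08 (adjusted p = 0.0122) and the nuclear receptor Nr5a2 by -0.37 ± 0.08 (adjusted p = 0.0181). Esrrb, an orphan nuclear receptor of the naive network, fell by 0.23 on the log2 scale (adjusted p = 0.0479). Manba and the methylcytosine dioxygenase Tet2 were the remaining called members. Klf4, Klf5, Tfcp2l1, Prdm14 and Nr5a2 were named after their values were seen. Esrrb was not called under several settings, with adjusted p = 0.059 after quantile normalization, 0.0985 with only the 6 arrays of the contrast in the fit and 0.518 with all probe sets averaged. Without a variance trend Klf4, Klf5, Tfcp2l1, Nr5a2, Tet2, Manba and Esrrb were not called (adjusted p = 0.0511 to 0.123). With median centring Klf4, Klf5, Nr5a2, Manba and Esrrb were not called (adjusted p = 0.0575 to 0.168), with all probe sets averaged Klf5, Tfcp2l1 and Manba were not (adjusted p = 0.0636 to 0.466), and Prdm14 was not with all 18 arrays in 1 fit (adjusted p = 0.0551). Tbx3 and Fbxo15 kept their calls without any array and under every other setting tried. The other 8 did not, and the number of the 10 still called was 2 without vector replicate 3, 3 without Foxd3 replicate 3, 4 without vector replicate 2, 5 without Foxd3 replicate 1 or 2 and 9 without vector replicate 1. The list's median stayed between -0.32 and -0.20 over all settings tried. Klf2 changed by -0.25 ± 0.08 (adjusted p = 0.136) and was called with the replicate block (adjusted p = 0.0225), and Zfp42, known as Rex1, changed by -0.21 ± 0.10 (adjusted p = 0.342).

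Of 13 tested core pluripotency genes, 1 rose and 0 fell, with a median of -0.06. The riser was Lin28a, which represses the processing of let-7 microRNAs, with 1847, 1736 and 1989 with Foxd3 and 1265, 1222 and 1420.3 with vector (log2 change 0.50 ± 0.09, adjusted p = 0.00502; adjusted p = 0.0811 with all probe sets averaged).

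Of 13 tested genes of the primed and formative epiblast, 5 rose, 0 fell and 8 were not called, with a median of 0.37, and 11 had a log2 change above 0. Otx2, a homeobox factor of the formative epiblast named after its values were seen, gave 546, 556 and 551 with Foxd3 and 289.7, 268 and 209.6 with vector (log2 change 1.03 ± 0.16, adjusted p = 0.0015). Pou3f1, known as Oct6, gave 449, 328 and 282 with Foxd3 and 189, 113 and 96.8 with vector (log2 change 1.24 ± 0.22, adjusted p = 0.00502). Sall2, a zinc finger factor, gave 245, 250.4 and 374 with Foxd3 and 126, 69.4 and 72.6 with vector (log2 change 1.41 ± 0.19, adjusted p = 4.72e-04). In all 3 genes the groups were separate in every array, and Pou3f1 was not called with all probe sets averaged (adjusted p = 0.1). Fgf5, the classical marker of the primed epiblast, was not tested because it stayed below 65.8, with 5.23, 2.10 and 7.85 with Foxd3 and 23.2, 30.4 and 7.80 with vector.

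The remaining called genes of that list are DNA methyltransferases. Dnmt3b, which methylates DNA de novo, read 9433, 9578 and 11108 with Foxd3 and 5957, 3651 and 3784 with vector, a 2.29-fold rise (log2 change 1.20 ± 0.16, adjusted p = 6.12e-04). Dnmt3a, its paralogue, averaged 1956 ± 236 with Foxd3 and 1069 ± 246 with vector (log2 change 0.87 ± 0.20, adjusted p = 0.0239), and 4 other tested probe sets of the gene were also called higher. With the probe set used here its call was lost without any Foxd3 or vector array except vector replicate 1, at adjusted p-values up to 0.122, and without a variance trend (0.0857). Among 7 tested enzymes of DNA methylation these 2 rose and Tet2 fell, from the ten-eleven translocation family that oxidises methylcytosine. Tet2 read 2046, 2536 and 2146 with Foxd3 and 2746, 3079.7 and 3146 with vector (log2 change -0.41 ± 0.09, adjusted p = 0.0134), and was not called once vector replicate 2 or 3 or Foxd3 replicate 1 or 3 was omitted, at adjusted p-values up to 0.0789. The maintenance enzyme Dnmt1 changed by -0.05 ± 0.08 (adjusted p = 0.834), its partner Uhrf1 by -0.05 ± 0.08 (adjusted p = 0.837) and the cofactor Dnmt3l by -0.17 ± 0.15 (adjusted p = 0.684), none of them called. Tet1 changed by -0.22 ± 0.07 (adjusted p = 0.135) and was called with the replicate block (adjusted p = 0.0347) and array weights (0.0417).

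Of 10 tested neuroectoderm genes 3 rose and 0 fell, with a median of 0.48. Sox11, a SoxC factor of early neurons, was the most even, with 1559.8, 1598 and 1608 with Foxd3 and 789, 699.8 and 697 with vector (log2 change 1.09 ± 0.08, adjusted p = 1.75e-06). Sox4, its close relative, read 5254, 5933 and 6131 with Foxd3 and 3559.9, 3291 and 3092 with vector (log2 change 0.79 ± 0.07, adjusted p = 9.81e-06; adjusted p = 0.117 with all probe sets averaged). Msi1, an RNA-binding protein of neural progenitors, changed by 0.52 ± 0.13 (adjusted p = 0.0398) and had an adjusted p of 0.545 with all probe sets averaged. Its call was lost without any Foxd3 or vector array except vector replicate 2, at adjusted p-values up to 0.165, and without Foxd3+CA-NFATc3 replicate 1 (0.0513). Nes, the progenitor filament nestin, changed by 0.39 ± 0.17 (adjusted p = 0.304) and was not called. Of the 16 genes of the list with a probe set, 6 were below 65.8 in all 6 arrays. The summed level of the list was 9845 to 11200 with Foxd3 and 6374 to 7133 with vector. Most of that sum, and of its difference between groups, was signal of Sox4 and Sox11. In RNA of whole cultures, more or fewer cells of a type cannot be told from more or less RNA per cell.

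**Figure D3:**
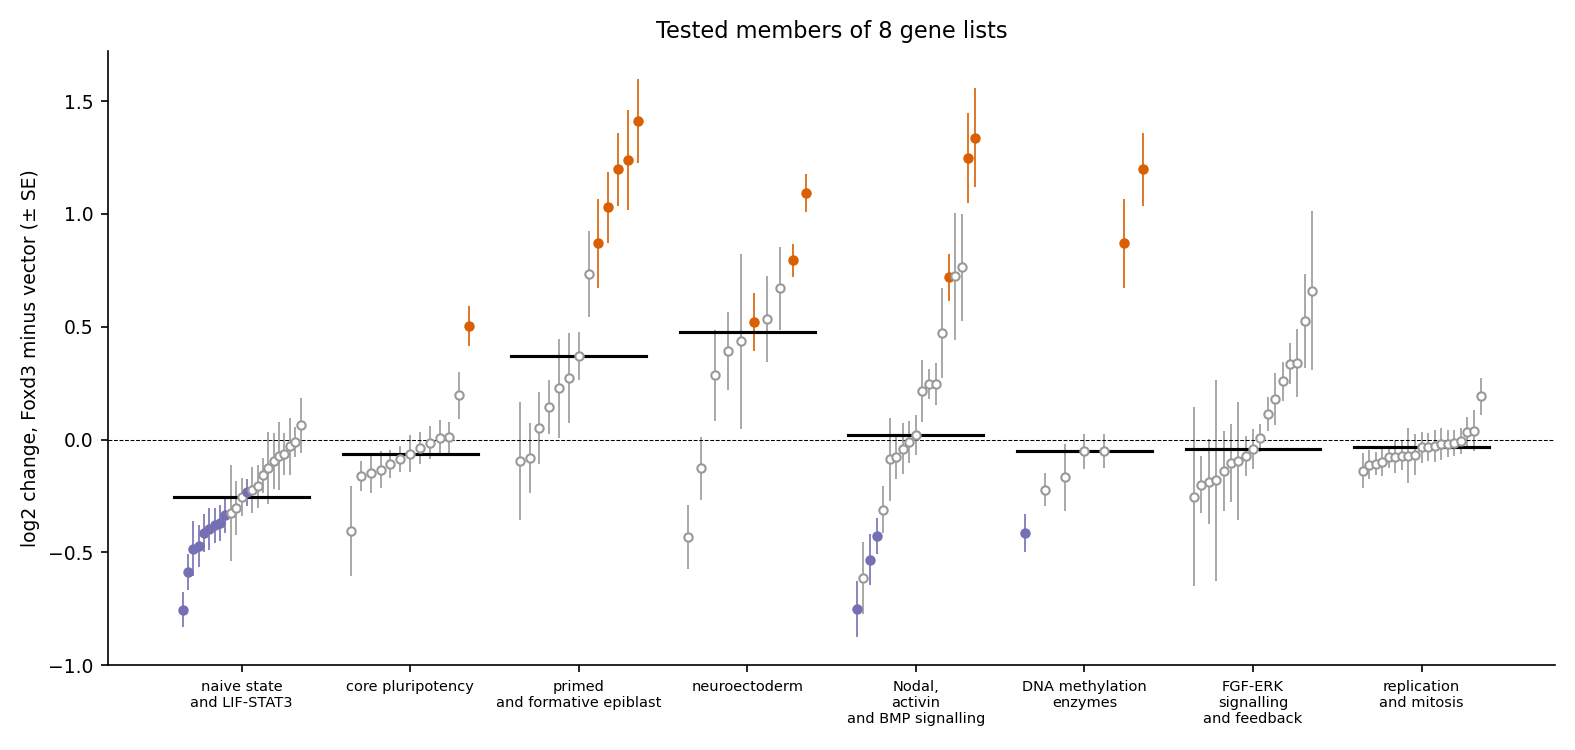
Each point is a tested gene of 1 of 8 lists, at its log2 change, Foxd3 minus vector, with the standard error; filled points were called and black lines are list medians. The naive list has its median at -0.25 with 10 falls, and the primed list its median at 0.37 with 5 rises.

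Among lists of other lineages, counts are again to be read beside the 2.88% of all tested genes that were called. Of 11 tested genes of primitive and visceral endoderm 1 rose, the basement membrane collagen gene Col4a1 with 518, 477 and 605 with Foxd3 and 289, 328 and 326 with vector (log2 change 0.70 ± 0.13, adjusted p = 0.00688; adjusted p = 0.052 without Foxd3 replicate 3 and 0.192 with all probe sets averaged). Gata6, the endoderm regulator, read 63.2, 55.2 and 62.7 with Foxd3 and 58.3, 79.6 and 62.5 with vector. Of 13 trophectoderm genes 1 fell, Tfap2c (log2 change -0.39 ± 0.10, adjusted p = 0.0477). Its call was lost without 4 of the Foxd3 and vector arrays, at adjusted p-values up to 0.237. It was also lost without CA-NFATc3 replicate 1 or any Foxd3+CA-NFATc3 array (adjusted p = 0.0525 to 0.0667). Several other settings ended the call, including quantile normalization (0.0545) and median centring (0.0679). Cdx2, the trophectoderm regulator, was below 65.8 in all 6 arrays. Of 5 tested mesoderm and smooth muscle genes, the tropomyosin genes Tpm1 and Tpm2 rose. Tpm2 averaged 1305 ± 99.4 with Foxd3 and 855 ± 45.4 with vector (adjusted p = 9.98e-04) and Tpm1 averaged 869 ± 119 with Foxd3 and 534 ± 29.3 with vector (adjusted p = 0.00742, 0.0569 without Foxd3 replicate 3 and 0.0735 with all probe sets averaged). The summed level of this list was 2357 to 2726 with Foxd3 and 1618 to 1714 with vector. Most of that sum, and of its difference between groups, was signal of Tpm1 and Tpm2. Of its 10 genes with a probe set, 5 were below 65.8 in all 6 arrays. The part of such cells in any result was not tested. Limma called 0 of 4 neural crest, 2 primitive streak, 5 fibroblast and 6 interferon response genes. At an unadjusted p under 0.05 these lists held 0, 0, 1 and 1 genes in that order, and 14.1% of all tested genes passed that limit.

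Genes of the Nodal, activin and BMP pathways moved in both directions. These are ligands of the TGF-beta family that act through Smad proteins, and of 19 tested genes 3 rose, 3 fell and 13 were not called, with a median of 0.02. Among ligands, Inhbb and Bmp4 were lower. Bmp4, named after its values were seen, averaged 1597 ± 274 with Foxd3 and 2306 ± 180.1 with vector (log2 change -0.53 ± 0.11, adjusted p = 0.0156), and lost its call without 4 of the arrays, at adjusted p-values up to 0.103, and without a variance trend (0.0597). Nodal changed by -0.04 ± 0.11 (adjusted p = 0.918) and was not called. Among extracellular inhibitors, Lefty1, an antagonist of Nodal, read 7636, 5979 and 7524 with Foxd3 and 3929, 4052 and 4798 with vector (log2 change 0.72 ± 0.10, adjusted p = 9.74e-04), whereas Lefty2 changed by -0.01 ± 0.09 (adjusted p = 0.983). Fst, follistatin, which binds activin, read 294, 462 and 404 with Foxd3 and 121, 149 and 157 with vector (log2 change 1.25 ± 0.20, adjusted p = 0.00211).

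Among the transcriptional targets of BMP signalling, Id2 read 4226, 3285 and 5645 with Foxd3 and 2001, 1324 and 1772 with vector (log2 change 1.34 ± 0.22, adjusted p = 0.0025). Id1 averaged 2889.9 ± 909.5 with Foxd3 and 1637 ± 247 with vector and Id3 averaged 1193 ± 422 with Foxd3 and 689 ± 154 with vector. They were not called (adjusted p = 0.114 and 0.234) but were with the replicate block (adjusted p = 2.76e-04 and 4.19e-04), and Id1 was with array weights (0.0406) and all 18 arrays in 1 fit (0.046). In all 3 Id genes replicate 2 was the lowest array of its group. Smad7, the inhibitory Smad, averaged 943 ± 67.7 with Foxd3 and 1279 ± 61.9 with vector and was named after its values were seen (log2 change -0.43 ± 0.08, adjusted p = 0.00708; adjusted p = 0.052 without Foxd3 replicate 3 and 0.155 with all probe sets averaged).

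In the lists of other signalling pathways the called shares may likewise be read beside 2.88% of all tested genes. Of 13 tested Wnt genes Fzd2 and the repressor Tcf7l1 rose and 0 fell, with a median of -0.02. Tcf7l1 averaged 2231 ± 332 with Foxd3 and 1642 ± 73.4 with vector (adjusted p = 0.0297), and lost its call without any vector array or without Foxd3 replicate 3, at adjusted p-values up to 0.16, and without a variance trend (0.0766). Axin2, a common target of beta-catenin, changed by -0.39 ± 0.17 (adjusted p = 0.301) and was not called. Of 13 ephrins and Eph receptors Efnb2 was called in the fit used here. Efnb1, the related ligand, averaged 457 ± 141 with Foxd3 and 252 ± 32.1 with vector (adjusted p = 0.0917). It was called with the replicate block (adjusted p = 0.022), with array weights (0.0329), with all probe sets averaged (0.00912), with only the 6 arrays of the contrast (0.0465) and with all 18 arrays in 1 fit (0.0483). Of its 2 other tested probe sets 1 was called higher when each was tested on its own (log2 change 1.29, adjusted p = 0.0095). Of 23 tested genes of heparan sulphate synthesis and its carriers 2 rose and 0 fell, with a median of 0.07. Beside Hs6st2 this was Sulf1, an extracellular enzyme that removes 6-O sulphate, with 1588, 1593 and 1833 with Foxd3 and 822, 843 and 965 with vector (log2 change 0.91 ± 0.10, adjusted p = 8.83e-05). Hs6st1, which adds the same sulphate, averaged 492 ± 78.3 with Foxd3 and 412 ± 33.2 with vector and Sulf2 averaged 5049 ± 264 with Foxd3 and 4823 ± 603 with vector, neither called.

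Of 17 tested genes of FGF-ERK signalling and its feedback limma called 0, with a median of -0.04. At an unadjusted p under 0.05 it held 4, all higher. Fgf4, the ligand made by stem cells, changed by -0.04 ± 0.09 (adjusted p = 0.885), and the ERK phosphatase Dusp6 by 0.26 ± 0.09 (adjusted p = 0.149). Of 16 G1 cyclins and CDK inhibitors Cdkn1c alone was called. Its relatives Cdkn1a and Cdkn1b changed by 0.21 ± 0.24 (adjusted p = 0.777) and 0.15 ± 0.20 (adjusted p = 0.801), and cyclin D1 (Ccnd1) by 0.15 ± 0.11 (adjusted p = 0.56). Of 19 replication and mitosis genes limma called 0, with a median of -0.03. At an unadjusted p under 0.05 it held 1. The proliferation marker Mki67 averaged 5943 ± 273 with Foxd3 and 6071 ± 342 with vector. Of 14 tested imprinted genes 3 rose and 0 fell, with a median of 0.21. Beside Cdkn1c these were the long noncoding RNA Meg3, with 7257, 7345 and 7938 with Foxd3 and 4533, 5168 and 5553 with vector (log2 change 0.56 ± 0.09, adjusted p = 0.00155), and Gnas, a G protein subunit gene (log2 change 0.48 ± 0.07, adjusted p = 0.00111). With all probe sets averaged Gnas changed by 0.17 and was not called (adjusted p = 0.717).

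The last lists each held 0 to 2 called genes, to be read beside the 2.88% of all tested genes that were called. Of 12 immediate early genes the matricellular genes Ccn1 and Ccn2 rose. Ccn2 read 1069, 824 and 1655 with Foxd3 and 484, 365 and 554 with vector (log2 change 1.24 ± 0.28, adjusted p = 0.0219), and was not called once vector replicate 1 or 2 or Foxd3 replicate 1 or 3 was omitted, at adjusted p-values up to 0.132, nor without a variance trend (0.0848). Of 14 stress genes the chaperone gene Hspa1a rose, with 342, 350.0 and 552 with Foxd3 and 209, 201 and 133 with vector, and the unfolded protein response factor Xbp1 fell (log2 change -0.33 ± 0.07, adjusted p = 0.0201). Hspa1a gave an adjusted p of 0.059 without vector replicate 3 and 0.0591 without Foxd3 replicate 3. Xbp1 lost its call without any of 5 arrays, at adjusted p-values up to 0.0947, and with median centring (0.0967) or no variance trend (0.0766). Perp fell among 14 genes of the p53 pathway (log2 change -0.48 ± 0.12, adjusted p = 0.0357; up to 0.173 without 1 array and 0.0936 without a variance trend), Tex14 among 13 germline genes, and Foxd3 alone among 19 forkhead genes. Crabp2, a retinoic acid binding protein, rose among 10 genes of that pathway (log2 change 0.83 ± 0.20, adjusted p = 0.0381; adjusted p up to 0.164 without 1 array and 0.0526 with median centring). Itga6 rose among 19 adhesion genes (log2 change 0.25 ± 0.06, adjusted p = 0.043; up to 0.193 without 1 array, 0.0618 after quantile normalization and 0.0532 with median centring). Esrrb alone was called among 14 genes of the glycolysis and respiration switch, as a fall. Of 13 calcineurin and NFAT genes limma called 0. At an unadjusted p under 0.05 there was 1. Nfatc3 changed by 0.12 ± 0.06 (adjusted p = 0.412) and the calcineurin target Rcan1 by -0.19 ± 0.11 (adjusted p = 0.483).

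Outside the lists, 7 further genes were picked after their values were seen. Cd24a, a surface glycoprotein, read 6425, 6920.0 and 8662 with Foxd3 and 3030.1, 2838 and 3163 with vector (log2 change 1.27 ± 0.09, adjusted p = 1.06e-06), and 2 other probe sets of the gene were also called higher. Frmd4b, a scaffold protein, read 2654, 3029 and 3291 with Foxd3 and 840.5, 1066 and 867 with vector (log2 change 1.66 ± 0.12, adjusted p = 8.56e-07). Ntrk2, the neurotrophin receptor TrkB, averaged 405 ± 35.3 with Foxd3 and 152 ± 32.9 with vector, and the homeobox factor Meis2 averaged 229 ± 61.6 with Foxd3 and 76.5 ± 4.75 with vector. Neurog3, a basic helix-loop-helix factor of endocrine progenitors, averaged 298 ± 67.5 with Foxd3 and 99.9 ± 7.50 with vector (adjusted p = 0.00117). Ooep and Khdc3, parts of the subcortical maternal complex of the oocyte, were lower. Ooep read 4777, 4659.8 and 4712 with Foxd3 and 6889, 8157 and 8307 with vector (log2 change -0.71 ± 0.07, adjusted p = 1.88e-05), and Khdc3 averaged 441 ± 16.8 with Foxd3 and 659.7 ± 52.8 with vector (log2 change -0.54 ± 0.10, adjusted p = 0.00688).

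Other probe sets of the called genes mostly moved the same way. The 158 called genes that had them held 277 other tested probe sets, of which 253 changed in the same direction, 73 were called in it and 0 were called in the opposite direction. Called genes were spread over all 19 autosomes and X, at 1.33% to 5.51% of the tested genes of each. Chromosome 3 had 22 rises and 9 falls among 563 tested genes, and X had 17 rises and 3 falls among 393.

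The same plasmid was compared in cells that also carried CA-NFATc3, from arrays that shared none with the comparison above. Foxd3+CA-NFATc3 against CA-NFATc3 gave 711 called genes (6.12%), 283 higher (2.44%) and 428 lower (3.69%), and 1258 with the replicate block. Without CA-NFATc3 replicate 3 there were 385. Of the 198 genes that rose over vector, 182 were also higher here, 115 were called higher and 3 were called lower, with a median change of 0.57. Of the 136 that fell, 120 were lower, 49 were called lower and 1 was called higher, with a median of -0.26. The 164 genes called the same way in both were 49.1% of the 334 and 23.1% of the 711. They numbered 358 with the replicate block and 95 without Foxd3 replicate 3. Changes correlated at r = 0.791 across the 334 called genes and 0.376 across all tested genes. Genes are not independent replicates, and all 12 arrays shared the cells.

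Most of the largest rises held on this background. Hs6st2 read 807, 873 and 904 in Foxd3+CA-NFATc3 arrays and 105, 77.8 and 117 in CA-NFATc3 arrays (log2 change 2.77 ± 0.15, adjusted p = 2.39e-08). Cdkn1c read 1375, 904 and 1466 in Foxd3+CA-NFATc3 arrays and 282, 263 and 259 in CA-NFATc3 arrays (log2 change 2.06 ± 0.18, adjusted p = 4.07e-06). Ms4a4d, Pkdcc, Zfhx3 and Fzd2 changed by 2.67 ± 0.20, adjusted p = 1.07e-06, 2.18 ± 0.16, adjusted p = 8.63e-07, 1.97 ± 0.15, adjusted p = 1.07e-06 and 1.73 ± 0.24, adjusted p = 2.70e-04. The Foxd3 transcript itself changed by -0.87 ± 0.13, adjusted p = 4.52e-04 and Tbx3 by -0.58 ± 0.08, adjusted p = 1.98e-04. Some changes over vector did not pass here, among them Igfbp3 (0.35 ± 0.24, adjusted p = 0.512), Gbp2b (0.15 ± 0.25, adjusted p = 0.855), Pou3f1 (0.04 ± 0.22, adjusted p = 0.959), Dnmt3b (0.33 ± 0.16, adjusted p = 0.313), Inhbb (0.03 ± 0.13, adjusted p = 0.953) and Id2 (0.62 ± 0.22, adjusted p = 0.125). For these 6 the difference between backgrounds did not pass its own test (adjusted p = 0.0595 to 0.518).

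**Figure D4:**
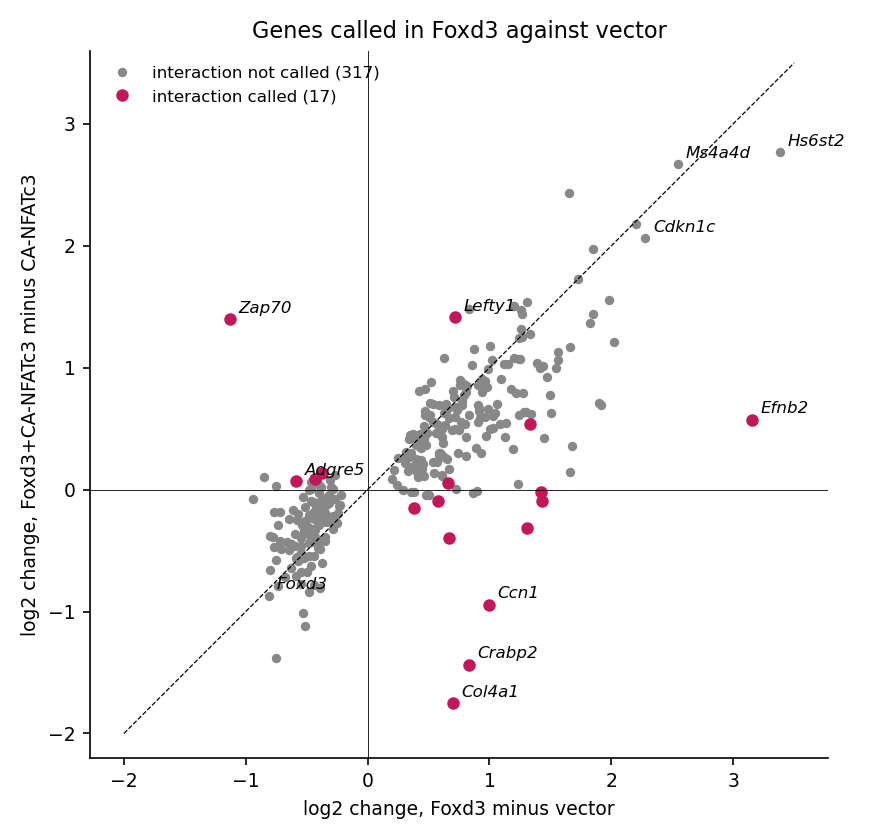
Each point is 1 of the 334 genes called in Foxd3 against vector, with that log2 change on the x axis and its log2 change in Foxd3+CA-NFATc3 minus CA-NFATc3 on the y axis; the dashed line marks equal changes. Across them r was 0.791, and the 17 genes with a called interaction, such as Efnb2 and Zap70, lie away from the line.

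The test of that difference called 94 genes (0.81%), and 245 with the replicate block. Without CA-NFATc3 replicate 3 there were 48, and without Foxd3 replicate 3 there were 60. It called 17 of the 334, 13 rising genes and 4 falling genes, and in 12 of the 13 and all 4 the change was smaller or turned with CA-NFATc3. Efnb2 read 920.2, 619 and 1087 in Foxd3+CA-NFATc3 arrays and 479, 536 and 689.7 in CA-NFATc3 arrays, so its change there was 0.58 ± 0.21, adjusted p = 0.137. Its signals were high with either plasmid and low with vector alone. Prtg, an immunoglobulin superfamily receptor named after its values were seen, had 267, 329 and 385 with Foxd3 and 104, 74.5 and 129.6 with vector. In Foxd3+CA-NFATc3 arrays it read 326, 386 and 370.3 and in CA-NFATc3 arrays 339.8, 411 and 352.

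For Col4a1, Crabp2 and Ccn1 the direction was opposite on the 2 backgrounds. Col4a1 rose over vector but read 788, 788 and 732 in Foxd3+CA-NFATc3 arrays and 2358, 2340.2 and 3439.8 in CA-NFATc3 arrays (log2 change -1.75 ± 0.13, adjusted p = 9.21e-07). Crabp2 read 451, 327 and 444 in Foxd3+CA-NFATc3 arrays and 1136, 904 and 1459.9 in CA-NFATc3 arrays (log2 change -1.44 ± 0.20, adjusted p = 3.61e-04). Ccn1, a matricellular protein, had 137, 172 and 204 with Foxd3 and 53.4, 83.1 and 73.1 with vector (log2 change 0.99 ± 0.20, adjusted p = 0.011; adjusted p = 0.0711 without Foxd3 replicate 3 and 0.294 with all probe sets averaged). It read 388, 299.8 and 298 in Foxd3+CA-NFATc3 arrays and 555, 542 and 938 in CA-NFATc3 arrays (log2 change -0.94 ± 0.20, adjusted p = 0.00823). Zap70, which fell against vector, was higher on this background, with 364, 406 and 194 in Foxd3+CA-NFATc3 arrays and 126, 131 and 51.7 in CA-NFATc3 arrays (log2 change 1.40 ± 0.28, adjusted p = 0.00587). Lefty1 was the rising gene whose change was larger with CA-NFATc3, reading 6171, 5588 and 6842 in Foxd3+CA-NFATc3 arrays and 2139, 2288 and 2475 in CA-NFATc3 arrays (log2 change 1.42 ± 0.10, adjusted p = 8.63e-07).

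Set directly against CA-NFATc3, Foxd3 differed in 1075 genes (9.26%), 1723 with the replicate block. This shares the Foxd3 arrays, so values are only set side by side. Foxd3 minus CA-NFATc3 was 2.86 ± 0.15, adjusted p = 8.88e-09 for Hs6st2, 2.43 ± 0.18, adjusted p = 4.51e-07 for Cdkn1c and -0.60 ± 0.08, adjusted p = 7.92e-05 for Tbx3. It was 1.06 ± 0.21, adjusted p = 0.00328 for Efnb2, -0.16 ± 0.16, adjusted p = 0.641 for Prtg and -2.26 ± 0.13, adjusted p = 2.94e-08 for Col4a1.

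Loss of Foxd3 was set beside these genes in the knockout cells. Tamoxifen against DMSO gave 4165 called genes of 12093 (34.4%), 2122 higher (17.5%) and 2043 lower (16.9%). Of 11 tested fibroblast genes 10 were higher and 0 lower, with a median change of 2.10. Of 11 interferon response genes 10 were higher and 0 lower, with a median of 1.95. Of 19 replication and mitosis genes 14 were lower and 0 higher. What part of the changes came from loss of the gene, from tamoxifen itself or from such shifts was not tested. Of the 191 genes that rose with the Foxd3 plasmid and were tested here, 49 were higher (25.7%) and 59 lower (30.9%) with tamoxifen, with a median change of -0.02. Of 133 genes that fell, 39 were higher (29.3%) and 22 lower (16.5%), with a median of 0.09. Across the 324 genes the changes had a correlation of 0.004. Hs6st2 read 1174, 1300.0 and 1144 with tamoxifen and 1093, 809.9 and 920.4 with DMSO, high in both, and Tbx3 read 2049.9, 2039.5 and 2132 with tamoxifen and 1391, 1202 and 997 with DMSO. The knockout cells are another line, so these levels and those of CGR8 cells cannot be set against each other as an effect of Foxd3.

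Single genes differed. Cdkn1c read 774, 802 and 738 with tamoxifen and 1385, 1109 and 1051 with DMSO (log2 change -0.59 ± 0.10, adjusted p = 8.94e-04), and Dnmt3b, Dnmt3a and Sox11 were also lower with tamoxifen (-0.31 ± 0.05, adjusted p = 9.90e-04, -0.78 ± 0.11, adjusted p = 2.80e-04 and -0.65 ± 0.06, adjusted p = 1.20e-05). Tbx3, Bmp4 and Mylpf were higher with tamoxifen (0.79 ± 0.10, adjusted p = 1.11e-04, 0.80 ± 0.08, adjusted p = 1.13e-05 and 1.04 ± 0.09, adjusted p = 6.18e-06). These 7, chosen after their values were seen, moved against their change with the Foxd3 plasmid. Efnb2, Ms4a4d, Cyp1b1 and Fst rose with tamoxifen as they had with the plasmid (0.59 ± 0.09, adjusted p = 4.14e-04, 1.09 ± 0.12, adjusted p = 4.96e-05, 2.22 ± 0.13, adjusted p = 1.63e-07 and 1.25 ± 0.14, adjusted p = 4.45e-05). Khdc3 and Ooep fell in both (-0.67 ± 0.11, adjusted p = 7.93e-04 and -0.55 ± 0.06, adjusted p = 4.09e-05).

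**Figure D5:**
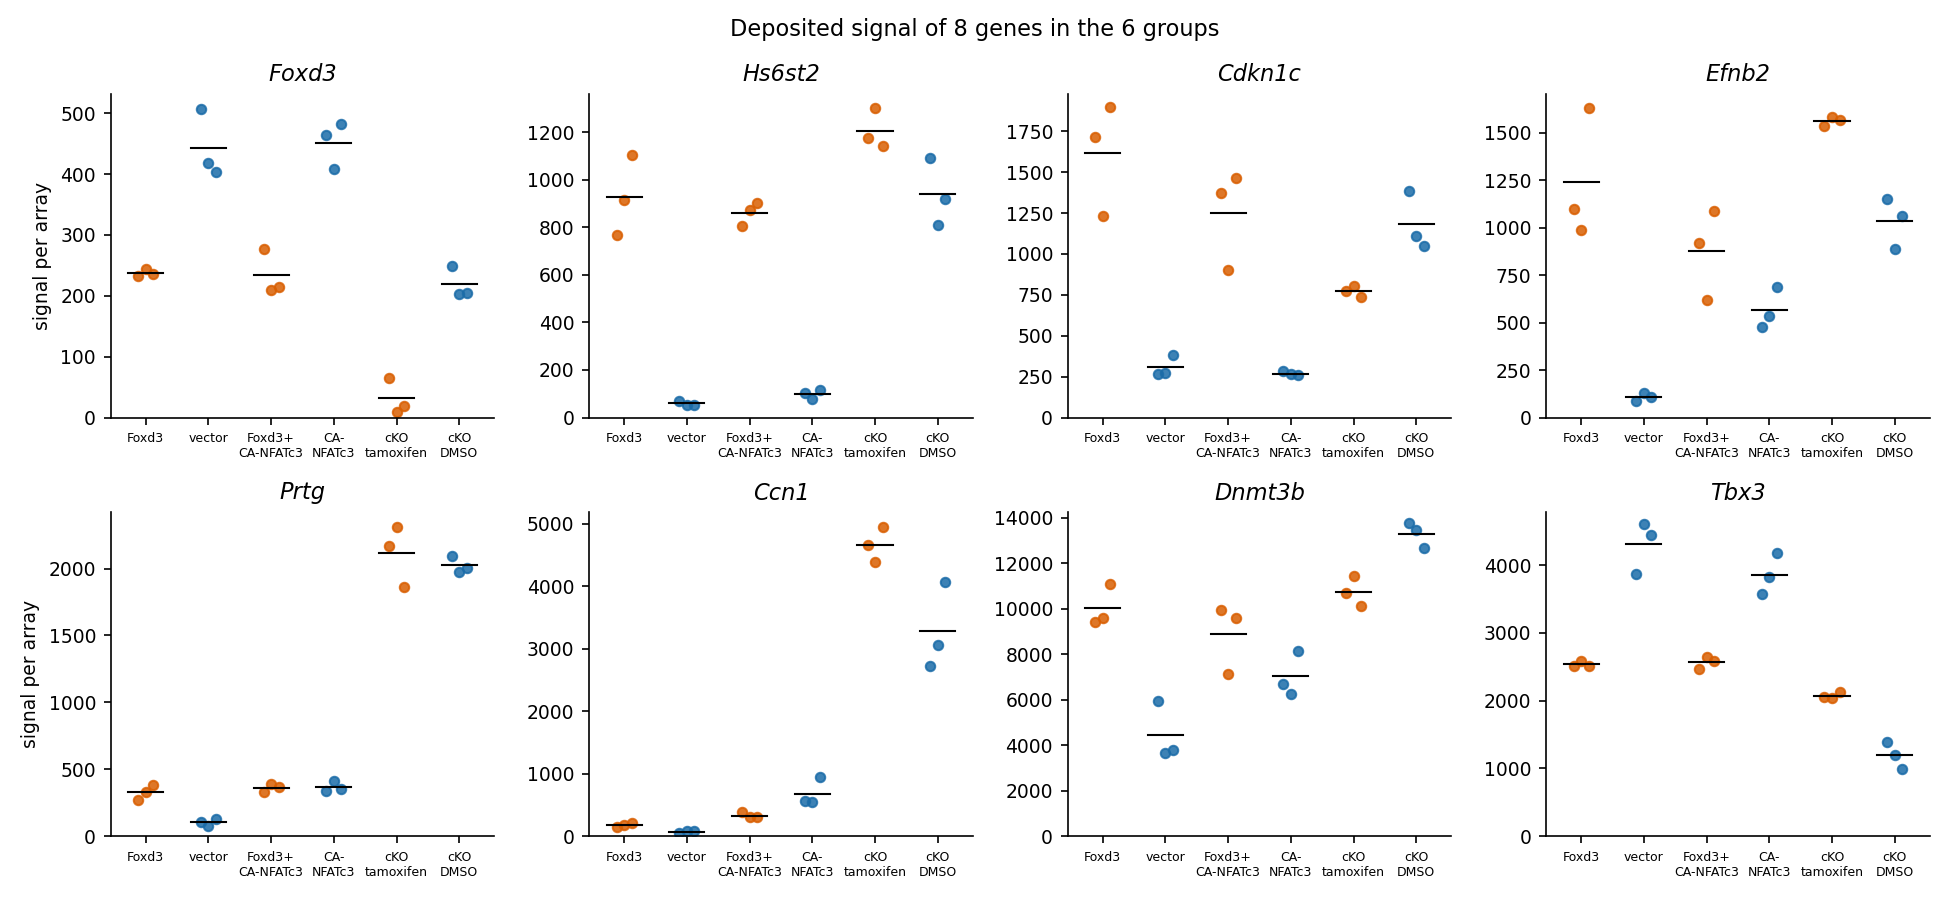
Points are single arrays and black lines group means of the deposited signal of 8 genes, with arrays labelled Foxd3 or tamoxifen in orange and the group each is set against in blue. Foxd3 lies lower in both groups labelled Foxd3, Hs6st2 lies higher in them, and in the knockout cells Hs6st2 is high with tamoxifen and with DMSO.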

How the data were processed

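RNA of 18 samples was hybridised to 1 Affymetrix mouse array each. Each probe set has a deposited intensity, a linear signal made with MAS5 (no version given) per the submitters' processing notes. Each array had a mean of 500 once 2% of values were trimmed at either end; detection calls and background were not used here. Arrays limit the precision by their number. At most 0.00443% of values were identical between a pair of arrays, and all value columns were matched to samples.

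Of 45101 probe sets, the platform's annotation gave 1 symbol to 34945, several to 932 and none to 9160, and 64 were controls. Each of 18193 genes was represented by its brightest probe set, judged by average log2 signal across the 18 arrays. After adding 32 to the deposited signals, log2 values were taken. Genes were tested where the signal reached 65.8, the median of all deposited values, in at least 3 arrays of the fit. The fit used limma 3.58.1 and R 4.3.3, with lmFit, contrasts.fit and eBayes with a variance trend, over the 12 transfected arrays, and over the 6 knockout arrays apart. Tests were two-sided with Benjamini-Hochberg adjustment. The interaction was the change of Foxd3+CA-NFATc3 over CA-NFATc3 minus that of Foxd3 over vector. The fit was checked on simulated data, drawn independently for each array. That check does not cover the relation between arrays of the same replicate number given below. Figures used Python 3.11.15 and matplotlib 3.10.9.

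The fit used here left out the replicate number, which entered only in the alternative with the replicate block. Transfected arrays with the same number were nevertheless related. Residuals of all 18 pairs with the same number correlated at 0.104 to 0.315 across genes, and those of 36 pairs with different numbers at -0.282 to 0.0133. Standard errors and adjusted p-values take no account of this, except where the block is named. The labels do not say what a number shares. The 6 groups had 3 arrays each.

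The members and the 30 gene lists were chosen with earlier results of these data known. Named genes were the 15 largest rises and falls that were called with separate groups, the 3 called members with the largest change of each list, the 3 largest interaction terms of each sign among called genes, and Foxd3, Nfatc3, Pou5f1, Nanog, Sox2, Cdx2, Gata6, Fgf5 and Rcan1. Every other gene was named after its values were seen. Alternatives were the offset, the filter, the scaling, the choice of probe set, the variance model, array weights, the replicate block, the arrays in the fit and leaving out each array. Genes that the platform's table did not pair with 1 probe set symbol were not analysed here.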

Additional observations from a re-analysis of the deposited data

Results flagged for a closer look

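For 14 named genes the change with the Foxd3 plasmid differed between the 2 backgrounds by the interaction test, in which a negative value means a lower change with CA-NFATc3 than with vector. For genes that rose over vector the terms were -2.58 for Efnb2, -2.46 for Col4a1, -2.27 for Crabp2, -1.94 for Ccn1, -1.62 for Sel1l3, -1.52 for Chst1, -1.45 for Prtg and -0.79 for Adgrl2 on the log2 scale. Lefty1 also rose over vector, and its term was 0.70. For Zap70 and Adgre5, which fell against vector, the terms were 2.53 and 0.65.

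For Rcan1, Col4a2 and Dusp6, not called between Foxd3 and vector, the terms were -1.14, -1.69 and -0.55. Rcan1, a feedback inhibitor of calcineurin that NFAT factors induce, read 1432, 1384 and 1508 in Foxd3+CA-NFATc3 arrays and 3235, 3274 and 4597 in CA-NFATc3 arrays, against 1006, 1112 and 1025 in Foxd3 arrays and 1192, 1137 and 1258 in vector arrays. Col4a2, the partner chain of Col4a1, read 251, 271 and 298 in Foxd3+CA-NFATc3 arrays and 612, 624 and 957 in CA-NFATc3 arrays, against 158, 221 and 159 in Foxd3 arrays and 137, 133 and 114 in vector arrays. Chst1, a carbohydrate sulphotransferase, read 149, 199.5 and 99.6 in Foxd3+CA-NFATc3 arrays and 149.7, 143 and 177 in CA-NFATc3 arrays, against 122, 138 and 124 in Foxd3 arrays and 33.4, 33.4 and 16.6 in vector arrays. The CA-NFATc3 arrays were the highest group for Rcan1 and Col4a2. The adjusted p of the term was 0.0485 for Dusp6, 0.0355 for Lefty1 and under these for the other 12.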

How the results depend on the processing

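Counts of calls and the named genes' changes between Foxd3 and vector were recomputed under the alternatives, and none of these named changes that was called turned its sign. Promoter shares and overlaps with the tamoxifen comparison were not recomputed. A fit of only the groups of the contrast was not run for the interaction, which needs all 4 groups, or for tamoxifen, where it is the fit already used. Beside 334 called genes, the mean of all probe sets of a gene gave 220, array weights 552 and the replicate block 783. Beside 198 rises, array weights gave 314 and the block 401. Beside 136 falls, median centring gave 85, the mean of all probe sets 83, no variance trend 77, array weights 238 and the block 382. Genes called and changed at least 2-fold numbered 25 with the largest offset tried and 41 with the mean of all probe sets, beside 66. The block gave 1258 genes for Foxd3+CA-NFATc3 against CA-NFATc3, 358 for those shared, 245 for the interaction and 1723 for Foxd3 against CA-NFATc3. The interaction gave 172 genes with array weights and 161 with all 18 arrays in 1 fit. Single arrays of the groups compared were left out in turn. For Foxd3 against vector, counts then lay at 158 to 282 for all calls, 111 to 174 for rises, 44 to 115 for falls and 52 to 70 for 2-fold changes. They lay at 385 to 585 for Foxd3+CA-NFATc3 against CA-NFATc3, 95 to 149 for shared genes and 48 to 104 for the interaction. Foxd3 against CA-NFATc3 gave 657 to 988 and tamoxifen against DMSO 2978 to 4366. Without single CA-NFATc3 or Foxd3+CA-NFATc3 arrays, which share the fit, Foxd3 against vector gave 188 to 217 rises and 104 to 139 falls. Without CA-NFATc3 replicate 3, Foxd3 against CA-NFATc3 gave 657. Knockout replicate numbers did not pair the arrays (residual correlations of -0.0425 to 0.0152), and a block there gave 4027 genes. Other than for Klf2, Tet1, Efnb1, Id1, Id3, Krt18 and Utf1, which it called, the block changed no named gene's call.

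Signals near 65.8 carry the least certain changes: 32 rising genes had a vector mean under 65.8, and the fitted change of such genes depends on the offset. Detection calls were not used here, so a dim signal cannot be told from none. The fall of the Foxd3 transcript in arrays labelled Foxd3 was not resolved, since the insert's sequence is unknown here. With 3 arrays a group, falls near the threshold moved in and out of the calls, and the cause was not tested.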

Other observations

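Further genes were compared between the groups. Chst15, a sulphotransferase acting on chondroitin sulphate, read 318, 267 and 375 with Foxd3 and 72.7, 63.3 and 106 with vector (log2 change 1.65 ± 0.30, adjusted p = 0.00617; adjusted p = 0.102 with an offset of 1), and another probe set averaged 120 with Foxd3 and 7.83 with vector. Sel1l3 read 133, 119 and 81.8 with Foxd3 and 37.9, 28.7 and 12.1 with vector (log2 change 1.31 ± 0.21, adjusted p = 0.00245; adjusted p = 0.326 with all probe sets averaged), at least 1.66-fold higher and below 65.8 in every vector array. Adgrl2, an adhesion G protein-coupled receptor, read 877, 1057 and 949.9 with Foxd3 and 353, 346 and 389 with vector (log2 change 1.33 ± 0.11, adjusted p = 4.86e-06). Adgre5, another receptor of that family, read 829.7, 711 and 802 with Foxd3 and 1098, 1221 and 1245 with vector (log2 change -0.59 ± 0.09, adjusted p = 0.00185). The cadherin genes Cdh1 and Cdh2 changed by -0.01 ± 0.07 (adjusted p = 0.959) and 0.51 ± 0.16 (adjusted p = 0.107), and vimentin (Vim) by 0.23 ± 0.08 (adjusted p = 0.154), none of them called, although Cdh2 and Vim were with array weights (adjusted p = 0.0257 and 0.0384). Apart from Adgre5, which was named by its interaction term, these genes were chosen after their values were seen.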
